A study of Homo sapiens with 6 samples.

Results

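The UBE2 genes encode ubiquitin-conjugating enzymes (E2s), and their mRNA levels were compared between HEK293T cells transfected with a pool of 4 siRNAs against LOC550643 and HEK293T cells transfected with a non-silencing control siRNA. The members were the protein-coding rows of the deposited gene table whose symbol begins with UBE2, with 1 gene of that prefix left out, which gave 35 of 26391 rows. HEK293T, a line of human embryonic kidney origin, expresses the large T antigen of SV40. Cells of both groups were transfected at 50% confluency and lysed 48 hours later, and each group held 3 samples prepared for poly-A selected RNA sequencing. LOC550643, now named NBDY, encodes a microprotein known to bind the decapping factor EDC4, and the design asks which mRNAs change in level once it is silenced. With 1 siRNA pool and 1 control siRNA, silencing and other effects of either cannot be told apart. Levels are given in CPM, reads of a gene scaled to library size with TMM factors, and the log2 fold change is LOC550643 siRNA over control siRNA.

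Ubiquitin is activated by an E1 enzyme, passed to a cysteine of an E2, and joined to a substrate with the help of an E3 ligase. The E2 largely sets which kind of chain is built, and some E2s carry a ubiquitin-like protein such as NEDD8 in place of ubiquitin. A few members keep the E2 fold without the catalytic cysteine and act as partners of an active E2.

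The sequences below code for the active site of the E2s whose paralogues moved apart in the comparison, the UBE2D class and the E2s of NEDD8. Each is 45 bases of the GENCODE canonical transcript (GRCh37), 5′ to 3′, from the codons for histidine, proline and asparagine onward, read at chr10:60124555-60124599 (plus strand) for UBE2D1, chr5:138994470-138994514 (plus) for UBE2D2, chr4:103722648-103722692 (minus) for UBE2D3, chr7:43988255-43988299 (plus) for UBE2D4, chr19:59068056-59068100 (minus) for UBE2M and across an exon junction on the plus strand of chromosome 2 for UBE2F. The capitals mark the codon of the catalytic cysteine, 8 codons after that of asparagine.
UBE2D1: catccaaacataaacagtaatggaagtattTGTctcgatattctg
UBE2D2: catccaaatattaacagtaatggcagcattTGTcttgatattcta
UBE2D3: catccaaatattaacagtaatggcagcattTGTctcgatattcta
UBE2D4: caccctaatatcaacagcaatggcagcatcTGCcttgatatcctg
UBE2M: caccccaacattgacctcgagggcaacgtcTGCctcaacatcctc
UBE2F: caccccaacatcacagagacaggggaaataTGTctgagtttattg
This spacing was found in 17 members and in 65 of 20249 genes with a coding sequence (0.321%). In the UBE2D class the cysteine is residue 85 in every member. The windows of UBE2D2 and UBE2D3 differed at 1 of 45 bases, those of UBE2D2 and UBE2D4 at 8, and those of UBE2M and UBE2F at 23. Over the whole coding sequence UBE2D4 was identical to UBE2D1, UBE2D2 and UBE2D3 at 77.6%, 77.6% and 77.1% of bases. Its longest identical run with any of them was 20 bases, shorter than the 75-base reads. Of the 75-base exon windows, 19 of 3516 in UBE2D4 and 111 of 3189 in UBE2D3 have another exact copy in the genome. UBE2D2 and UBE2D3 were identical at 86.6% and shared a run of 80 bases, so a few reads of these 2 genes cannot be told apart.

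LOC550643, listed as LINC01420, had 5.85, 5.96 and 5.41 CPM in the LOC550643 siRNA libraries, against 56.2, 50.7 and 51.8 CPM in the control siRNA libraries, so the target was lower in all 3 libraries of the pool. The step size of the values gives 35249993, 30739321 and 8604236 read pairs on genes for the LOC550643 siRNA libraries, and 32309964, 33421162 and 36082404 for the control siRNA libraries. LOC550643 siRNA replicate 3 was the shallowest, and control siRNA replicate 2 was in the 2 replicate pairs that differed most. Of 10 genes fixed as markers of HEK293 cells, 9 had a mean of at least 1 CPM and 1, KRT19, was at 0 in all libraries; the leukocyte genes CD3E and PTPRC, the hepatocyte genes ALB and TTR, the endothelial genes CDH5, PECAM1 and VWF and the fibroblast genes COL1A2 and DCN were under 0.5 CPM everywhere. Of the 4 leukocyte genes 1 had a mean of at least 1 CPM, and the list summed to 1.94 to 2.44 CPM in LOC550643 siRNA and 2.25 to 3.26 CPM in control siRNA libraries. The 3 hepatocyte genes, of which APOA1 was not under 0.5 CPM everywhere, summed to 0.0595 to 0.724 CPM in LOC550643 siRNA and 0.755 to 0.846 CPM in control siRNA libraries. The 5 fibroblast genes, COL1A1 among them, summed to 67.7 to 72.1 CPM in LOC550643 siRNA and 69.0 to 77.3 CPM in control siRNA libraries.

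Of the 35 members, 32 passed the filter on low values and were tested. After LOC550643 siRNA 12 rose, 3 fell and 17 did not pass (limma, adjusted p under 0.05 over all 16245 genes tested). In all genes tested, 35.7% were called, 17.5% higher and 18.2% lower, and in the members 46.9%, 37.5% higher and 9.38% lower. The members are well expressed, with a median of 103.5 CPM in control siRNA libraries against 29.37 CPM over all genes tested. Among the 9446 genes with a mean of at least 20 CPM, a level chosen after the values were seen, 41.5% were called, 24.6% higher and 16.9% lower, and of the 31 members at that level 38.7% were higher and 9.68% lower. The median log2 fold change was 0.11 over the members tested and -0.02 over all genes tested. Leaving out any 1 library lowered the count called higher, over the members and over all genes. Without LOC550643 siRNA replicate 3 the members stood at 10 higher and 3 lower and all genes at 2452 and 2532. Without control siRNA replicate 2 the members stood at 9 higher and 4 lower and all genes at 2623 and 2882. Without LOC550643 siRNA replicate 2 the members stood at 7 higher and 3 lower and all genes at 2048 and 2343, and without control siRNA replicate 1 at 8 and 3 and at 2151 and 2237. Scaled by library totals and not by TMM, 7 members were higher and 5 lower, while all genes stood at 2081 higher and 3976 lower (34.4% of calls higher, against 49.0% with TMM). The labels do not say whether the samples were separate cultures, so the p-values cover only the spread between them, which may be technical.

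**Figure D1:**
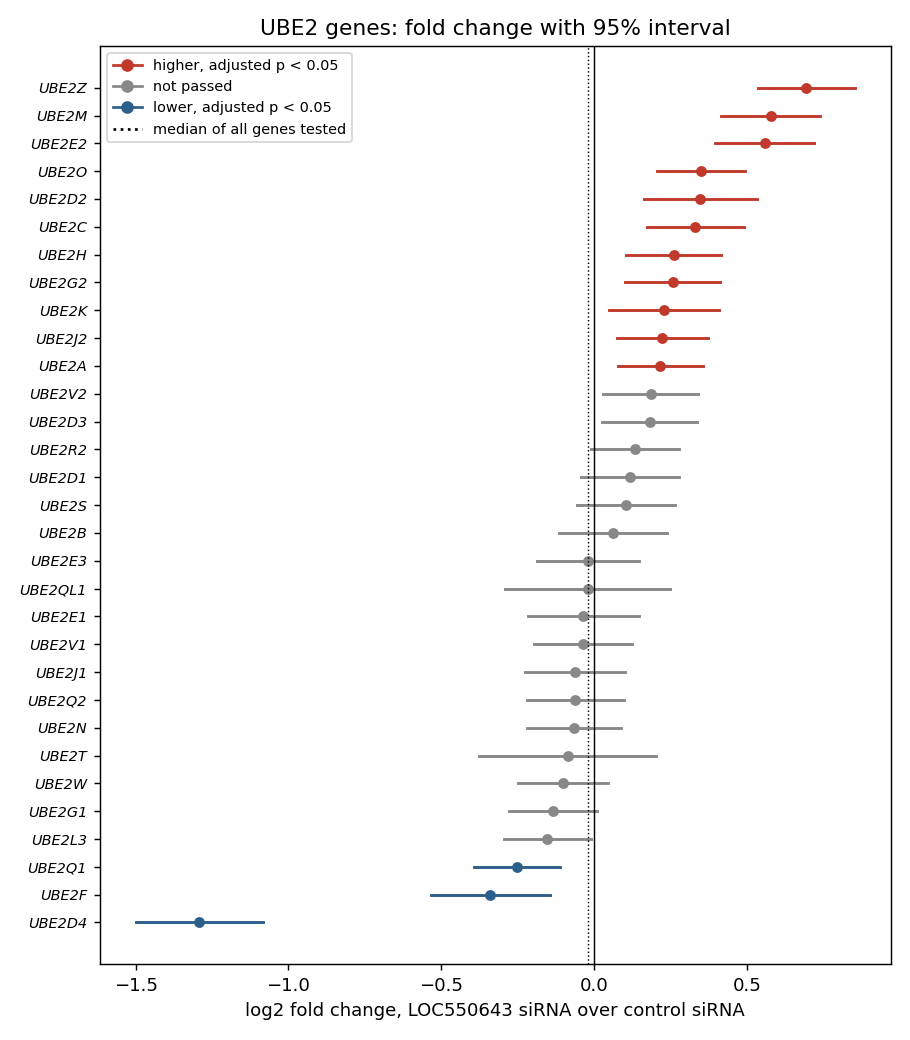
Log2 fold change (LOC550643 siRNA over control siRNA, horizontal axis) of 31 of the 32 UBE2 genes tested, with 95% intervals from limma; the dotted line is the median of all genes tested, -0.02. UBE2D4 stands apart at -1.29, and the highest is UBE2Z at 0.69.

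Most of the changes were small. Only UBE2D4 and UBE2Z passed the test with a change of more than 1.5-fold, and 1 member, UBE2D4, went past a log2 fold change of 1, the size the authors asked of a called gene. The median log2 fold change was 0.34 in the 12 members that rose and -0.34 in the 3 that fell, against 0.39 and -0.49 in all genes called higher and lower. At 21 of the 32 members (65.6%) the groups did not overlap, against 48.5% of all genes tested. The authors' deposited table lists 9 members as higher and 3 as lower at an adjusted p under 0.05, all of them also called here in the same direction; UBE2A, UBE2J2 and UBE2K were called here but not there.

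The UBE2D class, the E2s that work with the widest range of ligases, split. UBE2D4 (chromosome 7, 43966035 to 43995735, plus strand, hg19) had 13.2, 15.1 and 12.2 CPM in LOC550643 siRNA libraries, against 32.2, 32.2 and 34.4 CPM in control siRNA libraries. Every LOC550643 siRNA library lay below every control library, and the mean fell to 0.409 of the control level (log2 fold change -1.29, SE 0.095, limma adjusted p = 5.08e-06). The call held in every alternative tried, between -1.38 and -1.22. Exons of POLR2J4, a pseudogene of an RNA polymerase II subunit on the opposite strand, cover 15.5% of the GENCODE exon bases of UBE2D4. POLR2J4 also fell, to 12.8 ± 0.808 CPM in LOC550643 siRNA libraries, against 19.2 ± 0.691 CPM in control siRNA libraries (SD, n = 3 each; log2 fold change -0.58, limma adjusted p = 0.00053). The header command of the count table names no strand. Whether reads of POLR2J4 over these shared bases were counted for UBE2D4 is therefore not known, and their part in the fall of UBE2D4 was not tested.

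UBE2D2 had 262.9, 236.1 and 218.2 CPM in LOC550643 siRNA libraries, against 196.4, 172.5 and 193.6 CPM in control siRNA libraries. The groups did not overlap, and UBE2D2 rose by a log2 fold change of 0.35 (SE 0.085, limma adjusted p = 0.00806). UBE2D3, the most abundant member in CPM, averaged 352.5 ± 16.9 CPM in LOC550643 siRNA and 310.7 ± 12.5 CPM in control siRNA libraries, without overlap, and did not pass (log2 fold change 0.18, limma adjusted p = 0.0662), although it did with DESeq2 (adjusted p = 0.0462). UBE2D1 averaged 40.7 ± 2.14 CPM in LOC550643 siRNA and 37.5 ± 0.497 CPM in control siRNA libraries and did not pass (log2 fold change 0.12, 95% interval -0.04 to 0.28). As levels per kilobase of exon, UBE2D4 made up 1.74%, 2.03% and 1.67% of the class in LOC550643 siRNA libraries, against 4.88%, 5.26% and 5.15% in control siRNA libraries. The class as a whole summed to 187.3 ± 3.67 CPM per kilobase in LOC550643 siRNA and 162.8 ± 7.70 CPM per kilobase in control siRNA libraries, so the member that fell is the smallest of the class and the sum was higher.

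The UBE2E class, E2s with a long N-terminal extension, also moved unevenly. UBE2E2 had 55.3, 50.8 and 53.8 CPM in LOC550643 siRNA libraries, against 37.1, 34.2 and 37.3 CPM in control siRNA libraries. The groups lay well apart, and UBE2E2 rose by log2 0.56 (SE 0.074, limma adjusted p = 0.000214). UBE2E1 averaged 94.7 ± 6.96 CPM in LOC550643 siRNA and 97.0 ± 7.94 CPM in control siRNA libraries, and UBE2E3 averaged 47.1 ± 1.89 CPM in LOC550643 siRNA and 47.8 ± 3.27 CPM in control siRNA libraries, and both overlapped. NKIRAS1 exons on the opposite strand cover 33.8% of the GENCODE exon bases of UBE2E1, and NKIRAS1 did not pass (log2 0.15, limma adjusted p = 0.19). The 95% intervals of UBE2E1 and UBE2E3 were -0.22 to 0.15 and -0.19 to 0.15 on the log2 scale. The share of UBE2E2 in the class per kilobase was 27.1%, 26.4% and 28.1% in LOC550643 siRNA libraries, against 19.8%, 20.4% and 19.5% in control siRNA libraries. Of the 75-base exon windows of UBE2E3, 21.8% have another exact copy in the genome, so its level is uncertain; for UBE2E2 none of 2294 windows does.

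**Figure D2:**
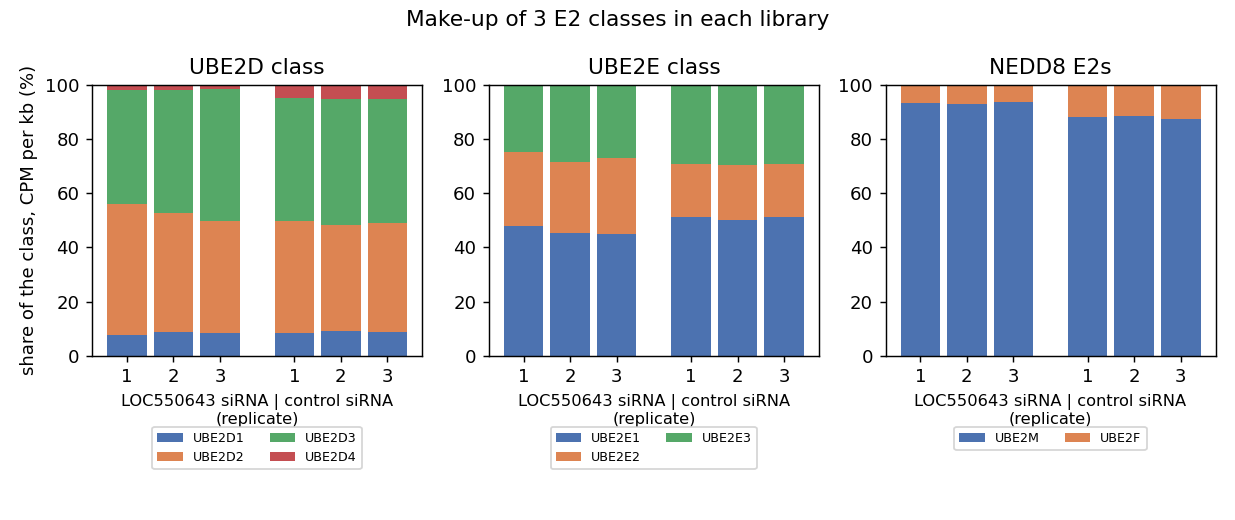
Share of each gene in the summed level per kilobase (CPM per kilobase, %) of the UBE2D class, the UBE2E class and the E2s of NEDD8, 1 bar per library, LOC550643 siRNA to the left. UBE2D4 takes 1.67% to 2.03% of its class in LOC550643 siRNA libraries and 4.88% to 5.26% in control siRNA libraries.

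The E2s of NEDD8, a ubiquitin-like protein, changed in opposite directions. UBE2M and UBE2F both carry NEDD8 to cullins, UBE2M with the RING protein RBX1 and UBE2F with RNF7 for CUL5. UBE2M (chromosome 19, 59067079 to 59070343, minus strand, hg19) had 286.6, 262.2 and 248.7 CPM in LOC550643 siRNA libraries, against 183.9, 171.7 and 177.8 CPM in control siRNA libraries. It was higher in all 3 libraries, by a log2 fold change of 0.58 (SE 0.073, limma adjusted p = 0.000166). UBE2F had 30.8, 29.7 and 26.0 CPM in LOC550643 siRNA libraries, against 37.2, 33.8 and 38.5 CPM in control siRNA libraries. It was lower in all 3 libraries (log2 -0.34, SE 0.089, limma adjusted p = 0.012). The log2 ratio of UBE2M to UBE2F per kilobase was 3.80 ± 0.058 in LOC550643 siRNA and 2.88 ± 0.071 in control siRNA libraries (SD, n = 3 each), without overlap.

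Both rows share sequence with another row of the table. UBE2F-SCLY, a readthrough transcript of UBE2F and its neighbour, shares 688 of 4238 GENCODE exon bases of UBE2F (16.2%) on the same strand. The counted row of UBE2F has 2294 exon bases. UBE2F-SCLY went the other way, with 55.4 ± 2.93 CPM in LOC550643 siRNA and 47.7 ± 2.03 CPM in control siRNA libraries (log2 fold change 0.22, limma adjusted p = 0.0379). Reads over the shared bases cannot be told apart. The UBE2F-SCLY row also runs past the end of UBE2F into the neighbour, so its level need not be that of the readthrough alone. UBE2MP1, a processed pseudogene of UBE2M, holds 101 of the 1085 windows of 75 bases in the UBE2M transcript and had 62.3 ± 5.05 CPM in LOC550643 siRNA and 41.4 ± 1.42 CPM in control siRNA libraries. Its log2 fold change was 0.59, and the log2 ratio of UBE2M to UBE2MP1 per kilobase was 1.43 ± 0.023 in LOC550643 siRNA and 1.44 ± 0.007 in control siRNA libraries, so the pseudogene row moved in step with the gene.

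Partners of UBE2M and UBE2F, like those given below for other members, were looked up after the lists were seen. In the NEDD8 pathway, UBA3, a subunit of the E1, fell by 0.34 (limma adjusted p = 0.0101). Its partner NAE1 was at -0.03, NEDD8 at 0.20, RBX1 at -0.28, RNF7 at -0.05 and CUL5 at 0.03, and none of these 5 passed (limma adjusted p from 0.0607 to 0.797).

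UBE2Z, which is charged by the E1 enzyme UBA6 and not by UBA1, had the highest log2 fold change of the members. It had 155.1, 178.7 and 173.8 CPM in LOC550643 siRNA libraries, against 106.3, 103.7 and 103.0 CPM in control siRNA libraries. The lowest LOC550643 siRNA library was above the highest control library, and UBE2Z rose by log2 0.69 (SE 0.072, limma adjusted p = 4.56e-05). UBE2Z lies on the plus strand of chromosome 17, 46985731 to 47006422 (hg19), and none of its 2567 exon windows has another copy in the genome. UBA6 averaged 118.1 ± 4.79 CPM in LOC550643 siRNA and 98.9 ± 5.26 CPM in control siRNA libraries (log2 fold change 0.26, limma adjusted p = 0.0143). UBE2W, an E2 that joins ubiquitin to the N terminus of proteins, did not pass, at 50.5 ± 1.67 CPM in LOC550643 siRNA and 54.1 ± 1.13 CPM in control siRNA libraries (log2 fold change -0.10, limma adjusted p = 0.266).

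**Figure D3:**
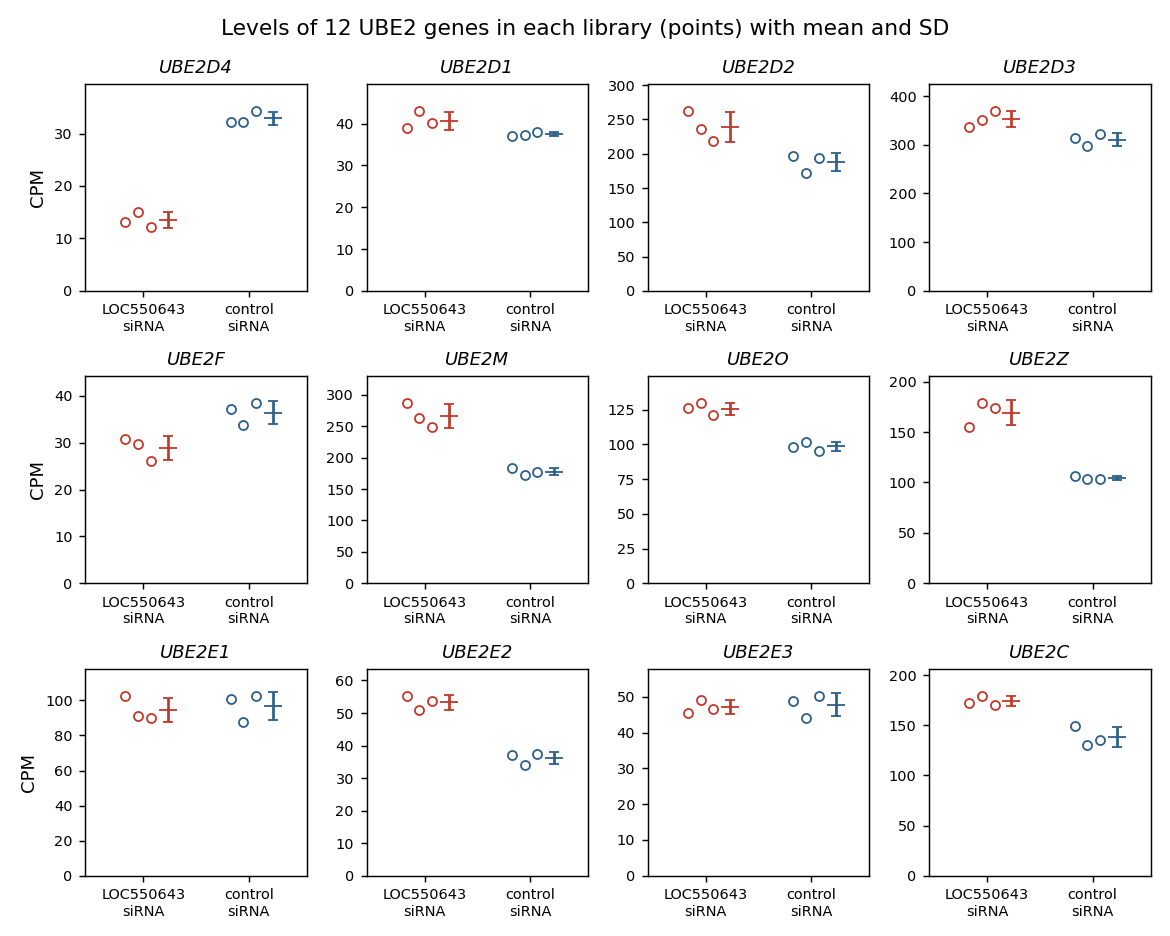
CPM (vertical axes from 0) of 12 UBE2 genes in each library, open points for single libraries and bars for the mean and SD of 3, LOC550643 siRNA left and control siRNA right. UBE2D4 lies at 12.2 to 15.1 CPM in LOC550643 siRNA and 32.2 to 34.4 CPM in control siRNA libraries, while the groups of UBE2E1 and UBE2E3 overlap.

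In mitosis UBE2C starts ubiquitin chains on substrates of the anaphase-promoting complex (APC/C) and UBE2S extends them. UBE2C had 172.7, 179.6 and 170.1 CPM in LOC550643 siRNA libraries, against 149.7, 130.3 and 135.5 CPM in control siRNA libraries. It rose by a log2 fold change of 0.33 without overlap (SE 0.072, limma adjusted p = 0.00434). UBE2S averaged 168.6 ± 9.0 CPM in LOC550643 siRNA and 156.8 ± 9.89 CPM in control siRNA libraries, with overlap, and did not pass (log2 fold change 0.11, 95% interval -0.06 to 0.27). Of the exon windows of the canonical UBE2S transcript 19.5% have another copy in the genome. That transcript has 2559 bases and the counted row 1185. UBE2C and UBE2S were the members with the highest levels per kilobase in control siRNA libraries. CDC20, an activator of APC/C, rose by 0.45 and its other activator FZR1 by 0.23 (limma adjusted p = 0.000459 and 0.0191). The APC/C subunits ANAPC2 at -0.20 and ANAPC11 at 0.0055 did not pass (limma adjusted p = 0.0612 and 0.966). UBE2R2, an E2 of the SCF ligases, averaged 215.7 ± 2.79 CPM in LOC550643 siRNA and 196.7 ± 8.49 CPM in control siRNA libraries and did not pass (log2 fold change 0.13, adjusted p = 0.136), and its paralogue CDC34, whose symbol lacks the prefix, rose by 0.20 (limma adjusted p = 0.0434).

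UBE2A and UBE2B are both homologues of yeast Rad6, which ubiquitinates PCNA with RAD18 and histone H2B with RNF20. UBE2A had 133.3, 134.7 and 133.2 CPM in LOC550643 siRNA libraries, against 116.0, 111.0 and 118.4 CPM in control siRNA libraries. It rose by a log2 fold change of 0.22 without overlap (SE 0.063, limma adjusted p = 0.0203). UBE2B had 31.0, 30.1 and 32.2 CPM in LOC550643 siRNA libraries, against 31.9, 27.7 and 29.9 CPM in control siRNA libraries, with overlap (log2 fold change 0.06, 95% interval -0.11 to 0.24), and its sign turned with library totals alone (-0.01). RAD18 fell by 0.30 (limma adjusted p = 0.00563) and RNF20 was at 0.03 (adjusted p = 0.829). NKRF exons on the opposite strand cover 15.9% of the GENCODE exon bases of UBE2A, and NKRF did not pass (log2 fold change 0.04, limma adjusted p = 0.697).

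UBE2N, the E2 of K63-linked chains, works with UBE2V1 or UBE2V2, which lack the catalytic cysteine. UBE2N averaged 107.1 ± 3.88 CPM in LOC550643 siRNA and 112.2 ± 6.64 CPM in control siRNA libraries (log2 fold change -0.07, limma adjusted p = 0.489). NUDT4 exons on the opposite strand cover 41.6% of the 5954 GENCODE exon bases of UBE2N, whose counted row has 2546. UBE2V1 averaged 207.3 ± 12.2 CPM in LOC550643 siRNA and 212.4 ± 11.6 CPM in control siRNA libraries (log2 fold change -0.04, adjusted p = 0.736), and its row overlaps that of the readthrough TMEM189-UBE2V1 on the same strand. The readthrough row stood at 224.3 ± 12.1 CPM in LOC550643 siRNA and 227.7 ± 10.2 CPM in control siRNA libraries. Reads shared by both rows were not separated. UBE2V2 had 95.3, 92.0 and 100.8 CPM in LOC550643 siRNA libraries, against 83.7, 80.4 and 89.4 CPM in control siRNA libraries, without overlap, and did not pass (log2 fold change 0.19, limma adjusted p = 0.0622). UBE2T, the E2 of the Fanconi anaemia pathway, had 80.7, 56.7 and 63.1 CPM in LOC550643 siRNA libraries, against 81.4, 60.3 and 70.4 CPM in control siRNA libraries. It had the largest standard error of the tested members (0.132) and did not pass (log2 fold change -0.09, limma adjusted p = 0.644). FANCD2, its substrate, fell by 0.47 (limma adjusted p = 0.000363) and the other substrate FANCI was at -0.03 (adjusted p = 0.737).

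UBE2G2 and UBE2J2, E2s of the endoplasmic reticulum (ER), passed, and their paralogues did not. UBE2G2, a homologue of yeast Ubc7 that acts in ER-associated degradation, had 198.6, 207.9 and 215.5 CPM in LOC550643 siRNA libraries, against 162.1, 181.1 and 177.2 CPM in control siRNA libraries. It rose without overlap by log2 0.26 (SE 0.071, limma adjusted p = 0.0152). Its paralogue UBE2G1 went to the other side and did not pass, at 108.4 ± 2.81 CPM in LOC550643 siRNA and 119.0 ± 4.63 CPM in control siRNA libraries (log2 fold change -0.13, limma adjusted p = 0.132), although it passed as lower with library totals alone (adjusted p = 0.0226). The log2 ratio of UBE2G2 to UBE2G1 per kilobase was 1.20 ± 0.021 in LOC550643 siRNA and 0.81 ± 0.087 in control siRNA libraries, without overlap. UBE2J2, anchored in the ER membrane, had 72.8, 70.2 and 69.0 CPM in LOC550643 siRNA libraries, against 63.2, 58.5 and 59.8 CPM in control siRNA libraries, and rose by 0.22 (SE 0.068, limma adjusted p = 0.0234). UBE2J1, its paralogue, overlapped at 86.9 ± 1.88 CPM in LOC550643 siRNA and 90.8 ± 7.58 CPM in control siRNA libraries (log2 fold change -0.06, adjusted p = 0.556). SYVN1, a ligase of ER-associated degradation, rose by 0.31 (limma adjusted p = 0.0052), and AUP1, which recruits UBE2G2, did not pass at -0.19 (adjusted p = 0.0508).

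Of the remaining E2s, UBE2O, a large enzyme that also acts as its own ligase, had 125.9, 129.7 and 121.0 CPM in LOC550643 siRNA libraries, against 98.4, 101.6 and 95.5 CPM in control siRNA libraries. The groups did not overlap, and UBE2O rose by a log2 fold change of 0.35 (SE 0.066, limma adjusted p = 0.0018). UBE2H, the E2 of the CTLH ligase, had 125.2, 142.1 and 135.5 CPM in LOC550643 siRNA libraries, against 108.0, 116.0 and 111.7 CPM in control siRNA libraries. It rose without overlap by log2 0.26 (SE 0.071, limma adjusted p = 0.0144). UBE2K, which builds K48-linked chains, had 169.0, 184.9 and 196.3 CPM in LOC550643 siRNA libraries, against 144.6, 154.9 and 170.1 CPM in control siRNA libraries. It passed narrowly although the groups overlapped (log2 fold change 0.23, SE 0.082, limma adjusted p = 0.0492), the only called member of which this is so. UBE2L3, which serves HECT and RBR ligases, averaged 149.1 ± 4.79 CPM in LOC550643 siRNA and 165.7 ± 5.14 CPM in control siRNA libraries, without overlap, and did not pass (log2 fold change -0.15, limma adjusted p = 0.0888), although it passed as lower with library totals alone (adjusted p = 0.0145) and without control siRNA replicate 2 (0.0491). Of its exon windows 13.1% have another copy in the genome.

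UBE2Q1, an E2 with a long N-terminal extension, was the third member that fell. It had 83.7, 88.4 and 86.7 CPM in LOC550643 siRNA libraries, against 101.7, 101.5 and 105.0 CPM in control siRNA libraries. All 3 LOC550643 siRNA libraries were lower (log2 -0.25, SE 0.064, limma adjusted p = 0.01). UBE2Q2 overlapped between the groups, at 43.4 ± 1.24 CPM in LOC550643 siRNA and 45.3 ± 2.30 CPM in control siRNA libraries (log2 fold change -0.06, 95% interval -0.22 to 0.10). UBE2QL1 was the lowest of the tested members, at 6.07 ± 0.626 CPM in LOC550643 siRNA and 6.15 ± 0.395 CPM in control siRNA libraries, and did not pass (log2 fold change -0.02). UBE2NL, a retrogene of UBE2N, UBE2Q2L and UBE2U were left out of the test. UBE2Q2L did not exceed 0.238 CPM in LOC550643 siRNA and 0.362 CPM in control siRNA libraries, and UBE2NL did not exceed 0.203 CPM in LOC550643 siRNA and 0.135 CPM in control siRNA libraries. UBE2U had no read in any library, where a count of 0 allows up to 0.0869, 0.101 and 0.357 CPM in LOC550643 siRNA and 0.0906, 0.0871 and 0.0812 CPM in control siRNA libraries (3 read pairs, for counting error only).

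The calls of 5 members that rose were lost when single libraries were left out, while their log2 fold changes stayed above 0. Without LOC550643 siRNA replicate 2 the log2 fold change was 0.212 for UBE2A, 0.256 for UBE2G2, 0.219 for UBE2H, 0.228 for UBE2J2 and 0.222 for UBE2K, close to the values in all libraries except for UBE2H at 0.26. Without LOC550643 siRNA replicate 2 the adjusted p was 0.0653 for UBE2A, 0.0513 for UBE2G2, 0.0686 for UBE2H, 0.0611 for UBE2J2 and 0.126 for UBE2K. Without control siRNA replicate 1 it was 0.0607, 0.0771, 0.0584 and 0.196 for UBE2A, UBE2G2, UBE2H and UBE2K. Without control siRNA replicate 2 it was 0.053, 0.0633 and 0.0825 for UBE2A, UBE2J2 and UBE2K. Without LOC550643 siRNA replicate 3 it was 0.0584 and 0.167 for UBE2G2 and UBE2K, and for UBE2J2 it was 0.0715 without LOC550643 siRNA replicate 1 and 0.0677 without control siRNA replicate 3. The calls of UBE2Z, UBE2M, UBE2E2, UBE2O, UBE2D2, UBE2C, UBE2D4, UBE2F and UBE2Q1 held in all 16 other fits at an adjusted p under 0.05, that of UBE2F at up to 0.0498.

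Levels per kilobase of exon spread widely among the members. In control siRNA libraries UBE2C, UBE2S and UBE2M stood at the top with 164.5 ± 11.9, 132.3 ± 8.35 and 117.3 ± 4.04 CPM per kilobase, and UBE2M was above UBE2S in LOC550643 siRNA libraries, at 175.3 ± 12.7 against 142.3 ± 7.60 CPM per kilobase. UBE2V1, UBE2T and UBE2D3 followed in control siRNA libraries at 82.1 ± 4.49, 78.3 ± 11.7 and 74.7 ± 3.01 CPM per kilobase, each closer to the next than the larger of their SDs. The place of UBE2V1 is also uncertain because its row overlaps that of a readthrough. At the other end stood UBE2D4 at 3.39 ± 0.37 CPM per kilobase in LOC550643 siRNA and 8.29 ± 0.312 in control siRNA libraries, UBE2W at 6.00 ± 0.198 in LOC550643 siRNA and 6.43 ± 0.134 in control siRNA libraries, and UBE2QL1 at 0.991 ± 0.102 in LOC550643 siRNA and 1.00 ± 0.064 in control siRNA libraries. UBE2D4 was therefore above UBE2W in control siRNA libraries and below it in LOC550643 siRNA libraries.

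The GC content of the canonical transcripts, which the choice of members did not use, had a median of 50.2% in the 12 members that rose, 47.9% in the 3 that fell and 41.0% in the 17 that did not pass. The ranges overlapped, from 36.1% to 63.2% in members that rose and from 33.6% to 55.7% in those that did not pass. Across the 32 tested members, which are genes of the same libraries and not independent, Spearman's rho between GC content and log2 fold change was 0.30.

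The promoters of the members with the largest changes are shown as the 250 bases before the start of the gene, from RefSeq (GRCh38.p14), 5′ to 3′ on the strand of the gene. Capitals mark matches on either strand to GGGCGG (the GC box) or CCAAT (the CCAAT box).
UBE2D4 (chr7:43926186-43926435, plus strand): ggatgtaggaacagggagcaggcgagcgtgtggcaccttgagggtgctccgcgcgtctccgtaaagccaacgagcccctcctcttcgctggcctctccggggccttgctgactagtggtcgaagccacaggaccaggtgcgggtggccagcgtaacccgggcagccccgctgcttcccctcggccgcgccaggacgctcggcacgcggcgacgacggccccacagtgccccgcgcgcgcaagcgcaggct
UBE2Z (chr17:48908157-48908406, plus strand): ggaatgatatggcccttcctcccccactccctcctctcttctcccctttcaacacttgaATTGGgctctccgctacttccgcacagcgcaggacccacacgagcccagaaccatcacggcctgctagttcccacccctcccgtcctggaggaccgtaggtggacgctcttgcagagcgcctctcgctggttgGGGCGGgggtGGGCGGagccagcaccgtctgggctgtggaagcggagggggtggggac
UBE2M (chr19:58558612-58558861, minus strand): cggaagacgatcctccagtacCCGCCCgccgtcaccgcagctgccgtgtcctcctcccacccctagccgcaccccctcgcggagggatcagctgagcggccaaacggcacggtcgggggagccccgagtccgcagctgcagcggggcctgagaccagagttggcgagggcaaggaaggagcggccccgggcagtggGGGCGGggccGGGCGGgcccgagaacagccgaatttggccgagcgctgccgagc
UBE2D4 has 0 matches to GGGCGG, UBE2Z has 2 and UBE2M has 3, and UBE2Z alone of these holds CCAAT, once. Promoters were matched by symbol for 26 members, with UBE2V2 and UBE2W not used; UBE2B, UBE2C, UBE2H, UBE2NL, UBE2Q1 and UBE2Q2L were among those with no entry. Some members have several promoter entries, 37 in all. GGGCGG was found in 28 of these 37 promoters and in 42.6% of all 35116 promoters of that length, and CCAAT in 11 of 37 and in 32.0% of all promoters. The median GC content was 72% in the 37 promoters and 58% in all promoters. Its part in the GGGCGG matches was not tested. Of the 11 called members with a promoter entry, 9 hold GGGCGG, all but UBE2D4 and UBE2G2. Among all 26 members with an entry, called or not, 22 hold it. A match is a description of the letters and not a site of binding.

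Lists of genes that act with the E2s were described by their calls, with no set test. Over all lists 55 of 219 tested genes rose and 26 fell. In all genes tested 17.5% rose and 18.2% fell, and at a mean of at least 20 CPM 24.6% and 16.9% did. Of 10 E1 genes 3 rose and 1 fell (median log2 fold change 0.05), with SAE1 at 0.33. UBA1, the main E1 of ubiquitin, rose to 711.7 ± 29.1 CPM in LOC550643 siRNA libraries, against 566.9 ± 13.0 CPM in control siRNA libraries (log2 0.33, limma adjusted p = 0.0048). Of 18 tested genes of ubiquitin and ubiquitin-like proteins 4 rose and 3 fell (median 0.07), among them SUMO3 at 0.40, MAP1LC3B at 0.34, ATG12 at -0.41 and URM1 at -0.28. Of 8 other genes of the E2 fold 4 rose and 0 fell (median 0.19), with ATG3, the E2 of autophagy, at 0.43 and AKTIP at 0.42. Of 17 APC/C genes 6 rose and 2 fell (median 0.11), with the subunits ANAPC7 at 0.38 and CDC23 at -0.37 and the inhibitor FBXO5 at -0.31.

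Of 26 cullin-RING genes 6 rose and 1 fell (median 0.05), with CAND1, which exchanges substrate adaptors on cullins, at 0.46, CUL3 at 0.31 and SKP2 at -0.28. The list of SUMO ligases and proteases also holds RANGAP1, a GTPase-activating protein modified by SUMO. Of its 18 genes 4 rose and 2 fell (median -0.01), with RANGAP1 at 0.54, RNF4 at -0.35 and SENP5 at -0.20. Of 22 DNA damage genes 2 rose and 2 fell (median -0.00015), and HLTF and RNF40 were those that rose, by 0.51 and 0.26. Of 13 genes on the list of ER-associated ligases and E2 recruiters 5 rose and 2 fell (median 0.05). Among them were STUB1, also looked up as a partner of UBE2D2, at 0.44, VCP at 0.41, SEL1L at -0.80 and RNF185 at -0.65.

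Of 27 HECT ligases, which take ubiquitin from an E2 onto their own cysteine, 2 rose and 3 fell (median -0.01). UBE3A rose to 127.1 ± 6.47 CPM in LOC550643 siRNA libraries, against 70.1 ± 1.29 CPM in control siRNA libraries (log2 0.86, limma adjusted p = 8.07e-06), and UBE3C rose by 0.41, while HECTD3 was at -1.10 and UBE3B at -0.62. Of 13 RBR ligases 4 rose and 2 fell (median 0.06), with RBCK1 at 0.37, ARIH2 at 0.28, RNF144B at -0.81 and RNF144A at -0.28. Of 47 deubiquitinases 15 rose (31.9%) and 8 fell (17.0%), with a median of 0.14. In control siRNA libraries 45 of the 47 had at least 20 CPM. The called genes included USP5 at 0.43, USP22 at 0.38, USP2 at -0.77 and JOSD1 at -0.40. All genes named from these lists passed with limma, at an adjusted p of at most 0.0475 (SENP5).

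**Figure D4:**
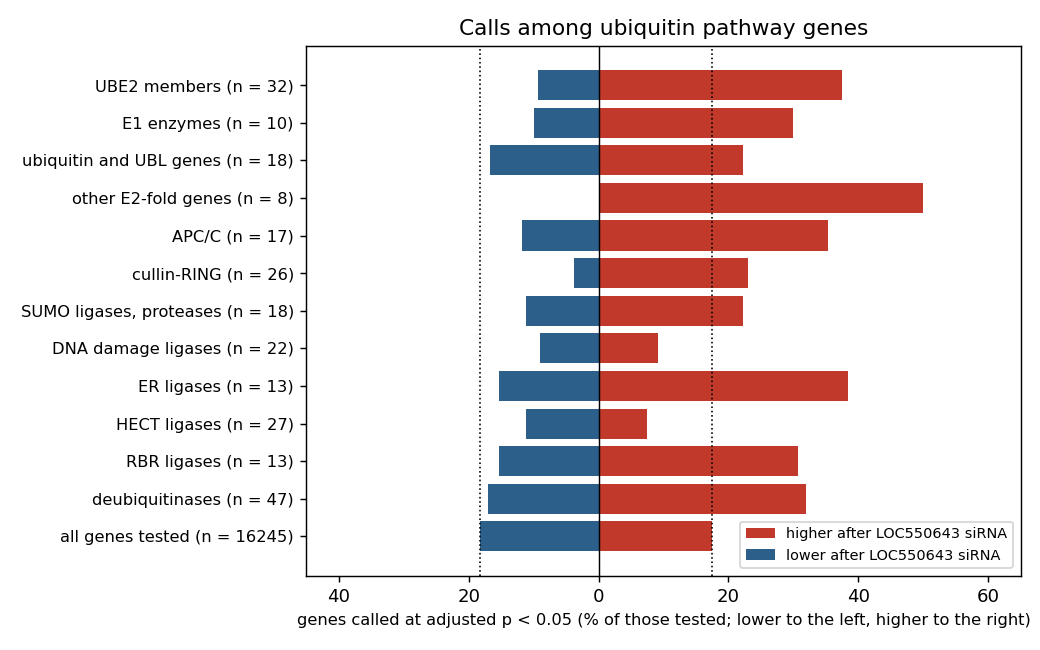
Share of genes called higher (right) and lower (left) after LOC550643 siRNA, in % of the genes tested, for the UBE2 members and 11 lists of pathway genes, with all genes tested at the bottom and as dotted lines (17.5% higher and 18.2% lower). The UBE2 members stand at 37.5% higher and 9.38% lower, and HECT ligases at 7.41% higher and 11.1% lower.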

How the data were processed

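Per the labels, poly-A RNA of 6 HEK293T samples was sequenced as dUTP libraries with paired 75-base reads, aligned to hg19 with STAR 2.4.0k, and compared with edgeR 3.6.8. Exon reads were counted with HOMER, and its command names no strand, per the file headers. The deposited values are a signal, exon coverage of a gene brought by the authors to library sums of 29401170 to 29401184. They are whole multiples of 1 step per library (100% of values within 0.1 step), taken as 1 read end because 59.2% to 61.0% of low values are even. The authors' deposited log2 fold changes and p-values were only set beside the values computed here, and their log2 sign runs LOC550643 siRNA over control siRNA.

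The test was limma 3.58.1 (empirical Bayes with trend, two-sided, Benjamini-Hochberg over 16245 genes) on the log2 of TMM-scaled values with a pseudocount of 1 deposited unit (0.034 CPM), with edgeR's filter at 10 read pairs. Fold changes on this scale understate those of low genes. Tested on simulated counts for this comparison (16137 genes), it recovered 56% of genes raised 1.5-fold, 92% of those raised 2-fold and 82% of those lowered to 0.5 of their level, with 5.7% of calls false. The simulation changed 50 genes at each fold, while 5793 genes were called in the data, so these rates need not carry over. As alternatives, edgeR 4.0.16 on recovered reads called 2883 genes higher and 3018 lower (read pairs) and 2859 and 2992 (read ends, added after seeing the data), and DESeq2 1.42.0, other scalings, filters, a pseudocount of 0.1, a replicate block, leaving out each library and an adjusted p of 0.01 were run. All replicate pairs differed by more than sampling noise, with a chi-square of 5.29 to 41.6 per degree of freedom, and all libraries were kept.

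Members and lists were chosen with earlier results of these data known. Values of each library are given for called members without overlap. For their paralogues among the members, values of each library or the mean and SD are given. Up to 2 genes per direction with the smallest p are named per list. Partners given beside single members, in all paragraphs, were looked up after the lists were seen. The minimum mean CPM used for well expressed genes was chosen after the values were seen. Exon windows of 75 bases were taken from GENCODE canonical transcripts and matched to GRCh37. There 34 of 35 members matched a GENCODE gene by symbol and strand. Exon overlaps are shares of the GENCODE exon bases over all transcripts of a gene. Both lengths differ from the exon length counted per row, and shares of the counted bases were not computed. UBE2 rows that are not protein-coding are no members. 1 gene of the prefix was left out, and some members, partners and list genes that the counts include are not reported here.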

Additional observations from a re-analysis of the deposited data

How the results depend on the processing

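The calls listed above as held kept their direction and side of the threshold in the 16 alternative fits; those of UBE2A, UBE2G2, UBE2H, UBE2J2 and UBE2K did not, with single libraries left out and with library totals alone (adjusted p 0.0862, 0.0595, 0.0534, 0.0966 and 0.161 in that order of genes). UBE2K was also lost with upper-quartile scaling, a pseudocount of 0.1, no filter and a minimum mean of 1 CPM. The cause was not tested. With library totals alone 7 members were higher and 5 lower; leaving out 1 library gave 7 to 11 higher and 3 to 4 lower, and over all genes 2048 to 2623 higher and 2237 to 2882 lower. At an adjusted p under 0.01, a stricter threshold, 7 members were higher and 1 lower, with 1770 and 1751 of all genes. Signs near 0 turned for members that did not pass: UBE2B was at -0.012 with library totals, and UBE2QL1 at 0.007 with edgeR and 0.012 with DESeq2. With 1 library left out, UBE2B ranged from -0.001 to 0.113, UBE2E1 from -0.115 to 0.007, UBE2E3 from -0.087 to 0.019, UBE2J1 from -0.126 to 0.003, UBE2QL1 from -0.095 to 0.053, UBE2T from -0.23 to 0.025 and UBE2V1 from -0.064 to 0.015. A fit with the replicate number as a block, run because both groups share numbers, called 12 members higher and 3 lower, and 2671 and 2718 of all genes. Same-numbered libraries did not deviate together (correlations 0.06, -0.28 and -0.12), so the numbers are not taken as pairs. LOC550643 siRNA replicate 3, the shallowest, limits precision for UBE2NL, UBE2Q2L and UBE2U.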
